A study of Mus musculus with 6 samples.

Results

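Survivin (Birc5), the cell cycle genes Cdk1, Ccnd3 and Cdkn1a, and the transcription factor genes Myc and Trp53 were described in mouse oral squamous cell carcinomas induced with 4NQO, a chemical carcinogen that forms bulky DNA adducts. They were chosen by symbol, and all 6 symbols were found among the 770 genes of the deposited table of log2 normalized counts. The 2 groups were tumours of 4NQO mice given agonistic anti-CD40, an antibody that activates the receptor CD40 on antigen-presenting cells (3 samples), and tumours of 4NQO mice given vehicle (3 samples). RNA came from formalin-fixed, paraffin-embedded primary tumours, so every sample holds carcinoma, stroma and immune cells together, and fewer cells of a type cannot be told apart from less RNA per cell. The labels do not give the age, sex or strain background of the mice, the dose or the timing, and nothing in them says whether each sample is a different animal, so the spread between samples may be partly technical.

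Survivin is a small member of the inhibitor of apoptosis family that also belongs to the chromosomal passenger complex, and its transcription peaks in G2 and mitosis. Cdk1 is the kinase that drives entry into mitosis, cyclin D3 partners with Cdk4 and Cdk6 in G1, and Cdkn1a encodes p21, an inhibitor of cyclin-dependent kinases that p53 induces after DNA damage. Birc5 and Cdk1 are among the genes that fall when p53 is active, through p21 and the repressor complex that replaces activating factors at their promoters. Myc promotes growth and entry into the cycle. In squamous cell carcinoma the p53 pathway is commonly disabled and survivin is commonly abundant.

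Values are log2 normalized counts as deposited, differences are anti-CD40 minus vehicle on that scale, and errors on means are SD over n = 3 samples per group. The deposited values resolved into whole counts, which summed over the 770 genes to between 333400 and 578598 per library. The background limit of a library was set at 2 SD over the mean of its 8 negative controls, at 24.7 to 26.6 counts, and a gene with more counts is called above background. The tumours carried epithelial transcripts, since 5 of the 6 measured epithelial markers, Cdh1 and Epcam among them, lay above background in every library. Immature myeloid granule genes set libraries apart within both groups: their summed normalized level was 4457, 1140 and 260 in anti-CD40 tumours 1, 2 and 3, against 187, 3911 and 218 in vehicle tumours 1, 2 and 3.

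Survivin was lower in every anti-CD40 tumour than in any vehicle tumour, Cdk1 was lower in the mean at counts near background, cyclin D3 was higher in the mean, and Cdkn1a, Myc and Trp53 lay within overlapping ranges. The 6 genes were picked with the results of this contrast known, so these differences are descriptions and carry no test of their own. Limma, fitted to all 770 genes with Benjamini-Hochberg adjustment, called 0 of the 6 genes and 0 of the 770 (0%) at an adjusted p of 0.05, and each of the 6 had an adjusted p of 0.974. At an unadjusted p under 0.05 it named 1 of the 6, Birc5, beside 25 of the 770 genes (3.25%), and limma-voom on the recovered counts named 1 of the 6 beside 26 (3.38%), with 0 after adjustment. The mean was lower in anti-CD40 tumours for 5 of the 6, beside 350 of the 770 genes (45.5%). The groups did not overlap for 2 of the 6, both lower in anti-CD40 tumours, beside 79 of the 770 genes (10.3%) in either direction and 27 (3.51%) in that direction.

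Birc5 stood at 7.85, 8.19 and 7.41 in anti-CD40 tumours 1, 2 and 3, against 8.73, 8.82 and 8.91 in vehicle tumours 1, 2 and 3. The 3 vehicle tumours lay within 0.18 of each other, the anti-CD40 tumours spread over 0.79, and the gap between the nearest samples of the groups was 0.54. The means were 7.82 ± 0.39 in anti-CD40 and 8.82 ± 0.09 in vehicle tumours, a difference of −1.001 (SE 0.26, 95% interval −1.61 to −0.39), or 0.50-fold. Of the 770 genes, 6 had a more negative difference. The recovered counts were 99, 118 and 59 in anti-CD40 tumours, against 229, 136 and 277 in vehicle tumours, all above the background limit. In these unscaled counts anti-CD40 2 and vehicle 2 were close, with exact Poisson 95% intervals of 97.7 to 141 and 114 to 161, which cover counting error only. Per 100000 counts of the library, survivin took 19.9, 26.5 and 17.7 counts in anti-CD40 tumours, against 39.6, 38.1 and 56.7 in vehicle tumours, so the groups stayed apart on that scale too.

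Cdk1 was close to the floor of the assay. It stood at 4.36, 5.80 and 5.35 in anti-CD40 tumours 1, 2 and 3, against 5.81, 6.20 and 5.90 in vehicle tumours 1, 2 and 3. The means were 5.17 ± 0.74 in anti-CD40 and 5.97 ± 0.21 in vehicle tumours, a difference of −0.79 (SE 0.38, 95% interval −1.68 to 0.10). The groups were apart by only 0.0031, between anti-CD40 2 and vehicle 1. Recovered counts were 7, 21 and 13 in anti-CD40 tumours, against 28, 21 and 32 in vehicle tumours, and the mean of the negative controls was 12.4 to 16.1 counts. Anti-CD40 2 and vehicle 2 thus had the same count and differed on the deposited scale through their library factors of 2.44 and 3.28. Cdk1 was above background in vehicle 1 and vehicle 3 and in none of the anti-CD40 tumours. The limit applies to unscaled counts, and vehicle 1 and vehicle 3 had the smallest library factors, 1.84 and 1.72. The same normalized level therefore gave more counts in them than in the other libraries. Without anti-CD40 1 the difference was −0.39, with SE 0.28, and with background subtracted and a floor of 1 count it was −2.55, with SE 0.70. In anti-CD40 1 and 3 the subtracted count fell below that floor and was set to it, so −2.55 depends on the floor chosen. The size of the Cdk1 difference is thus poorly fixed at these counts.

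**Figure D1:**
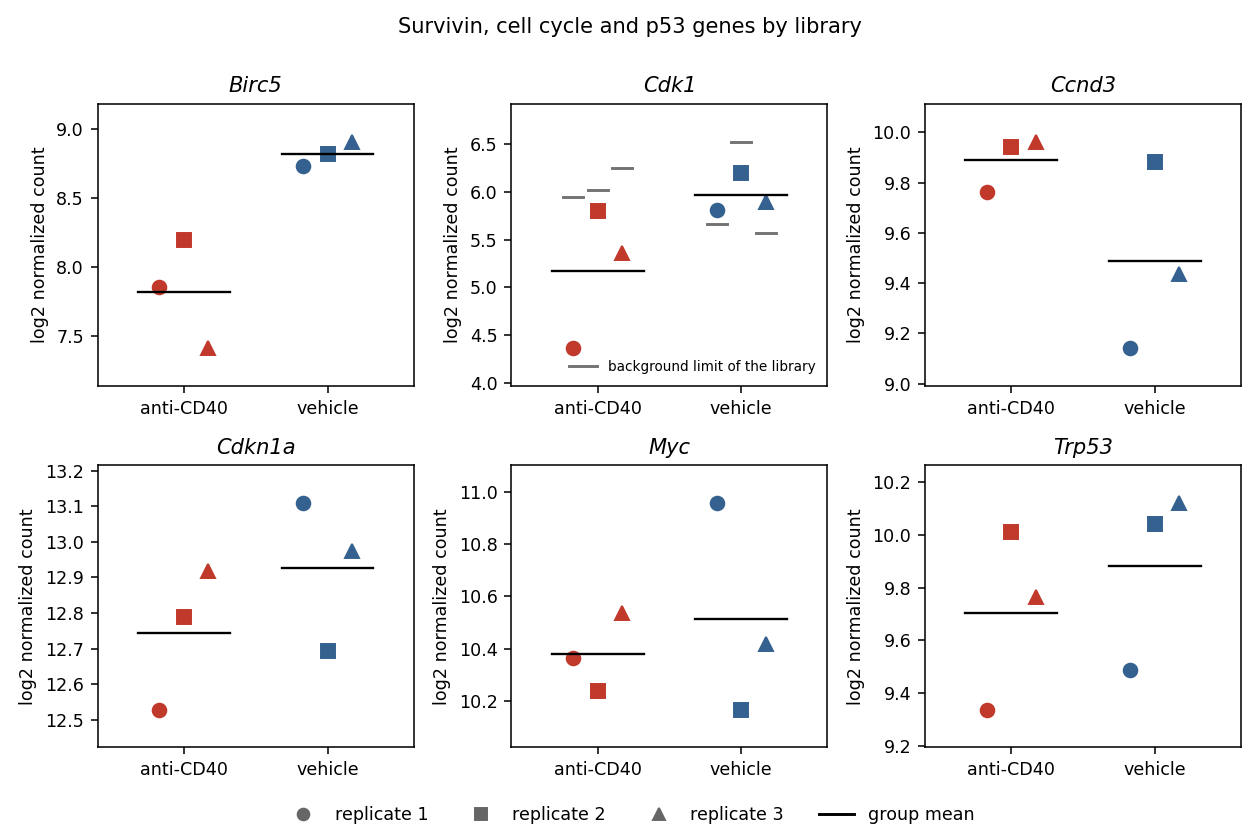
Log2 normalized counts (y axis, a separate range in each panel that does not start at 0) of the 6 genes in 3 anti-CD40 and 3 vehicle tumours, with black bars for group means and marker shapes for replicate numbers; in the Cdk1 panel, grey bars give the background limit of each library. Birc5 lies between 7.41 and 8.19 in anti-CD40 and between 8.73 and 8.91 in vehicle tumours, whereas Cdkn1a, Myc, Trp53 and Ccnd3 overlap.

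**Figure D2:**
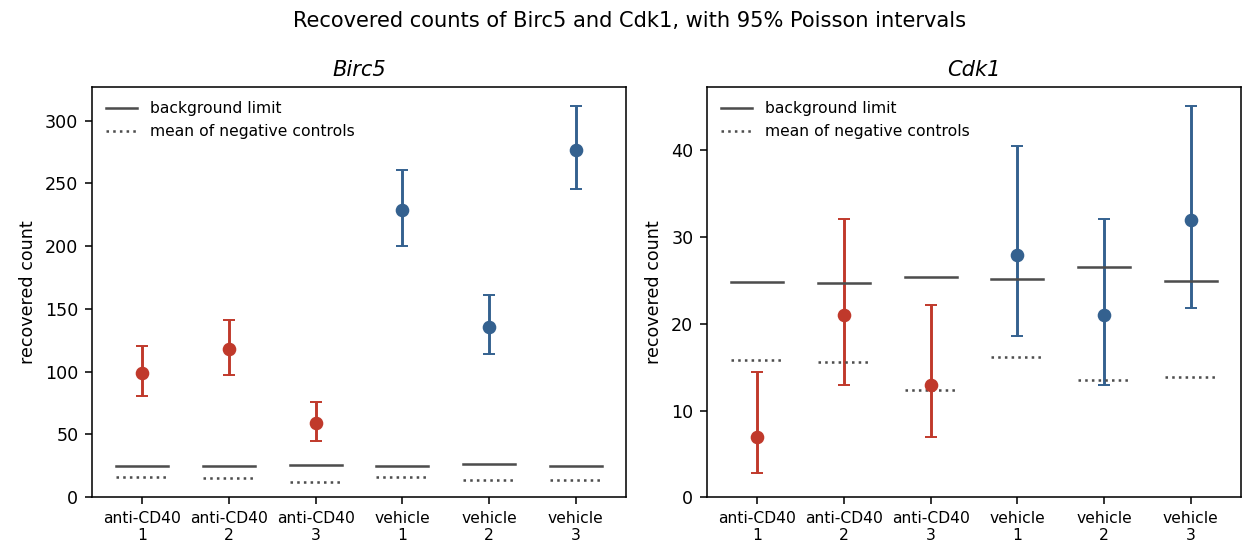
Recovered whole counts (linear y axis from 0) of Birc5 and Cdk1 in each library, with exact Poisson 95% intervals as bars, the background limit as a solid line and the mean of the negative controls as a dotted line. Cdk1 counts of 7 to 32 sit around the limit of 24.7 to 26.6 counts, and Birc5 counts of 59 to 277 lie above it.

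Levels of cell type markers are set beside these 2 genes. Of the 6 measured epithelial and carcinoma markers, 4 were lower in the mean in anti-CD40 tumours, and none was called. Their summed normalized level was 12878 to 18816 in anti-CD40 tumours, against 16374 to 24597 in vehicle tumours. The integrin genes Itga6 (difference −0.58) and Itgb4 (−0.44), which anchor basal keratinocytes, and the adhesion gene Cdh1 (−0.36) were the lower ones of largest size. With the mean log2 value of these 6 markers subtracted in each library, an alternative chosen after the data were seen, Birc5 was −2.50, −2.48 and −3.24 in anti-CD40 tumours, against −2.08, −1.87 and −1.96 in vehicle tumours. The groups still did not overlap, and the difference was −0.77. Cdk1 groups did overlap on that scale, with a difference of −0.57.

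Of 12 T cell markers, 11 were lower in the mean in anti-CD40 tumours, and 0 were called. Their summed normalized level was 757 to 1314 in anti-CD40 tumours, against 1046 to 1436 in vehicle tumours. Of the 12, only 4 were above background in every library, and Cd2, Cd8b1 and Cd27 were at or below it in every one. Dividing lymphocytes also express Birc5 and Cdk1, and the part of these markers in the differences was not tested. All 6 measured immature myeloid granule genes were higher in the mean in anti-CD40 tumours. Of these 6, 0 were above background in every library. In their sum, vehicle 2 stood beside anti-CD40 1 at the top, and vehicle 1 and 3 beside anti-CD40 3 at the bottom. Birc5 was lowest in anti-CD40 3, where the granule sum was 260. Cdk1 was lowest in anti-CD40 1, at 7 counts, where that sum was 4457. How either gene relates to the sum was not tested.

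Stromal and macrophage markers lay mostly the other way. Of the 7 measured fibroblast and matrix genes, all had a higher mean in anti-CD40 tumours, with summed normalized levels of 38712 to 50682 in anti-CD40 and 28708 to 47660 in vehicle tumours. Of 8 macrophage and monocyte genes, 7 means were higher, with sums of 3531 to 4047 in anti-CD40 and 2256 to 3782 in vehicle tumours. Of 6 endothelial genes, 5 means were higher, with sums of 8346 to 12951 in anti-CD40 and 7881 to 11462 in vehicle tumours. The lowest sum of each of these 3 lists was that of vehicle 3, and the groups overlapped in each. Of 7 B cell genes, 3 means were higher and 4 lower. Their sums were 250.1 to 605 in anti-CD40 and 260.3 to 1105 in vehicle tumours. Of these 7, 0 were above background in every library, and Cd22 and Cd79a were at or below it in every one. No gene of these 4 lists was called, and their part in the differences of Birc5 and Cdk1 was not tested.

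The promoter windows of Birc5 and Cdk1 are shown because both genes were lower in the mean and both are known targets of cell cycle repressors, and one of Cdkn1a because it is the direct p53 target of the set. They were taken from RefSeq (GRCm38.p6), whose table held windows for 5 of the 6 genes, each running from 250 bases before to 50 after an annotated transcript start. Capitals mark matches on either strand to the cell cycle homology region (CHR, TTTGAA), the CCAAT box (CCAAT), an E2F core (TCCCGC) and the p53 decamer, the unit of which a p53 response element holds a pair. In the 3 windows printed no match overlapped another.
Birc5, chr11:117848987-117849286, plus strand: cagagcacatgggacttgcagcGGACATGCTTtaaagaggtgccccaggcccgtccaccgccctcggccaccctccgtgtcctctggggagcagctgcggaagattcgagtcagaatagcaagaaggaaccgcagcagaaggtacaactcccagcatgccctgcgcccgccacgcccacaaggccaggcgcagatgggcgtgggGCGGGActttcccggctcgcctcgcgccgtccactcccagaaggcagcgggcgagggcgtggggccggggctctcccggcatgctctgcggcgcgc
Cdk1, chr10:69352863-69353162, minus strand: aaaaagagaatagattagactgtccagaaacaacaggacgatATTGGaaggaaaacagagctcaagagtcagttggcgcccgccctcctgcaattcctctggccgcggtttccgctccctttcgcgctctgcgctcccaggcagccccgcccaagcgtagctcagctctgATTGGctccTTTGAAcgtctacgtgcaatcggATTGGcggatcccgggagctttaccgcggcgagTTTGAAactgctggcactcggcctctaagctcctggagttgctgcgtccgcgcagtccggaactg
Cdkn1a, upstream of its 2 starts in the table, chr17:29090729-29091028, plus strand: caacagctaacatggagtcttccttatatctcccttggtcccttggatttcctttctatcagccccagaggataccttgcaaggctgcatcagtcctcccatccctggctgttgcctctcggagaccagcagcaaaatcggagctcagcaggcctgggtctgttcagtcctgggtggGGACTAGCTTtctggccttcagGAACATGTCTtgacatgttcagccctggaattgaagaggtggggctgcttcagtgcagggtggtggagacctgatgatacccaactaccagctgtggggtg

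The Cdk1 window held 2 CHR matches, which began 71 and 15 bases before the start, and 3 CCAAT boxes in reverse orientation. A CHR match was present in 17.9% of all 32851 windows of this length in the table and a CCAAT box in 37.4%. Neither run of letters stood in the Birc5 window. It held 1 E2F core in reverse orientation, beginning 46 bases before the start (19.98% of all windows), and 1 p53 decamer, beginning 228 bases before it (8.36% of all windows). The Cdkn1a window had 2 p53 decamers, GGACTAGCTT and GAACATGTCT, which do not adjoin each other. The decamer was searched as RRRCWWGYYY, where R is A or G, W is A or T and Y is C or T. Directly after GAACATGTCT stands tgacatgttc, which departs from that pattern only in its first letter and so was left unmarked. The 2 marked runs are therefore not to be read as the pair of a response element. The other Cdkn1a window had no decamer match, and the Trp53 window had 1, GGACTTGCCC. A CCAAT box also stood in the Trp53 window and in 1 of the 2 Ccnd3 windows. A match is a run of letters only, and none of these data measured binding at these windows.

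Cyclin D3 was the only one of the 6 genes with a higher mean after anti-CD40. Ccnd3 stood at 9.76, 9.94 and 9.96 in anti-CD40 tumours 1, 2 and 3, against 9.14, 9.88 and 9.44 in vehicle tumours 1, 2 and 3. The anti-CD40 tumours lay within 0.20 of each other, and vehicle 2 fell among them, so the groups overlapped. The means were 9.89 ± 0.11 in anti-CD40 and 9.49 ± 0.37 in vehicle tumours, a difference of 0.40 (SE 0.26, 95% interval −0.20 to 1.003). The difference was 0.23 without vehicle 1 and 0.60 without vehicle 2. Against the epithelial markers the groups no longer overlapped, and the difference was 0.63. Lymphocytes express Ccnd3 as well.

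Cdkn1a, the p21 gene, stood at 12.53, 12.79 and 12.92 in anti-CD40 tumours 1, 2 and 3, against 13.11, 12.69 and 12.97 in vehicle tumours 1, 2 and 3. Vehicle 2 lay below 2 of the 3 anti-CD40 tumours. The means were 12.75 ± 0.20 in anti-CD40 and 12.93 ± 0.21 in vehicle tumours, a difference of −0.18 (SE 0.23, 95% interval −0.72 to 0.36). Leaving out a library moved it to −0.072 (anti-CD40 1), −0.089 (vehicle 1) or −0.30 (vehicle 2), and against the epithelial markers it was 0.048. Its recovered counts were 2579, 2895 and 2767 in anti-CD40 tumours, against 4815, 2016 and 4681 in vehicle tumours, all far above background. The pooled spread within groups was 0.21 log2, and 17.3% of the 770 genes had a smaller one.

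Trp53, which encodes p53, stood at 9.34, 10.01 and 9.76 in anti-CD40 tumours 1, 2 and 3, against 9.49, 10.04 and 10.12 in vehicle tumours 1, 2 and 3. Replicate 1 was the lowest of its group on both sides, and the groups overlapped. The means were 9.70 ± 0.34 in anti-CD40 and 9.88 ± 0.34 in vehicle tumours, a difference of −0.18 (SE 0.28, 95% interval −0.84 to 0.49). Leaving out anti-CD40 1 turned it to 0.0052 and leaving out vehicle 1 made it −0.37. It was also −0.33 when anti-CD40 2 was left out, −0.099 for vehicle 2 and −0.059 for vehicle 3. Against the epithelial markers it was 0.051. Messenger RNA says little of p53 activity, which is set mainly by the stability of the protein, and neither mutation nor protein was measured.

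Myc stood at 10.36, 10.24 and 10.54 in anti-CD40 tumours 1, 2 and 3, against 10.96, 10.17 and 10.42 in vehicle tumours 1, 2 and 3. Vehicle tumours 1 and 2 were the highest and the lowest of all 6 libraries. The means were 10.38 ± 0.15 in anti-CD40 and 10.51 ± 0.40 in vehicle tumours, a difference of −0.13 (SE 0.27, 95% interval −0.76 to 0.49). Without vehicle 1 the sign turned, to 0.086. Without anti-CD40 2 the difference was −0.064, without anti-CD40 3 −0.21 and without vehicle 2 −0.31. After quantile normalization it was −0.28, and against the epithelial markers it turned to 0.093.

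The remaining genes of these pathways differed in both directions. Besides the 6, the lists of cell cycle, p53, Myc and growth signalling genes had 30 genes on the panel, of which 18 were higher and 12 lower in the mean. None of the 30 was called by limma after adjustment, and none had an unadjusted p under 0.05. Their differences ran from −0.52 to 0.83 with a median of 0.076, beside 0.038 over all 770 genes. The panel was thin in cell cycle genes: of 28 listed genes of S phase and mitosis and of 9 inhibitors of apoptosis, only Cdk1 and Birc5 were measured, and of 15 G1 genes only Ccnd3 and Cdkn1a.

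Of 7 measured p53 target genes, Cdkn1a included, 2 means were higher and 5 lower, the median difference was −0.13, and 0 were called. With 1 library left out the median ran from −0.20 (anti-CD40 2) through −0.023 (anti-CD40 1) to 0.036 (vehicle 2), so its sign was not stable. Thbs1, which encodes the matrix protein thrombospondin 1, was 11.03 ± 1.04 in anti-CD40 and 10.20 ± 0.40 in vehicle tumours. Its difference of 0.83 came to 0.31 when anti-CD40 3 was left out and to 1.35 when anti-CD40 2 was. The death receptor gene Fas was 8.40 ± 0.30 in anti-CD40 and 7.93 ± 0.29 in vehicle tumours, and the death receptor gene Tnfrsf10b was 7.56 ± 0.22 in anti-CD40 and 7.96 ± 0.25 in vehicle tumours. Fas differed by 0.47 and Tnfrsf10b by −0.40 (−0.26 without vehicle 3), and both had overlapping groups. Pml, a nuclear body gene that interferons also induce, differed by −0.17, or −0.042 without vehicle 1 and −0.27 without vehicle 3.

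Of 8 measured regulators of p53 and genes of the DNA damage response, 4 means were higher and 4 lower, with a median of 0.024 and 0 called. This median had no stable sign either, at −0.072 without vehicle 3, 0.072 without anti-CD40 3 and −0.014 after quantile normalization. Mapk8, which encodes the stress kinase JNK1, differed by 0.31 (0.13 with anti-CD40 1 left out, 0.52 with anti-CD40 2), and the cytokine gene Mif, known to restrain p53, by −0.24 (−0.064 without anti-CD40 1 and −0.38 without vehicle 1). The acetyltransferase gene Ep300 was 10.80 ± 0.10 in anti-CD40 and 10.68 ± 0.05 in vehicle tumours. The kinase gene Abl1 differed by 0.11, a sign that turned to −0.041 without vehicle 2.

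Of 7 measured genes of the Myc list, 4 means were higher and 3 lower, with a median of 0.10 and 0 called. The median was 0.18 without vehicle 1, 0.0039 without anti-CD40 2, −0.037 without vehicle 2 and −0.0074 after quantile normalization. Notch1, a receptor that activates Myc in T cell leukaemia and promotes differentiation in squamous epithelium, had groups that did not overlap. It stood at 10.42, 10.87 and 10.60 in anti-CD40 tumours, against 11.14, 10.90 and 11.40 in vehicle tumours, a difference of −0.52 (SE 0.24). Stat3 differed by 0.30, Nfkb1 by 0.21 and Rela by 0.13, all with overlapping groups. Without vehicle 1 these 3 differences were 0.45, 0.34 and 0.18, and the lowest with 1 library left out were 0.18, 0.071 and 0.064.

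Among 11 growth signalling genes, 8 means were higher and 3 lower, with a median of 0.077 and 0 called. Without vehicle 1 the median turned to −0.012, without vehicle 2 it was 0.14, and it was 0.036 after quantile normalization. Map2k4, which acts upstream of JNK, differed by 0.38 (0.17 without vehicle 2). The receptor gene Erbb2 differed by −0.33 (−0.20 without vehicle 1), and the leukocyte kinase gene Pik3cd by 0.14, or −0.024 without vehicle 3. The median over 20 housekeeping genes was 0.0097, with 11 higher and 9 lower, and ran from −0.078 (without anti-CD40 1) to 0.044 (without vehicle 2), or −0.082 after quantile normalization. The tubulin gene Tubb5, which dividing cells express strongly, had a difference of −0.42. It came to −0.11 when anti-CD40 1 was left out and to −0.71 when vehicle 1 was. The other 3 of largest size were Sdha (0.50, with a range of 0.15 for anti-CD40 1 left out to 0.82 for anti-CD40 2), Ppia (−0.40) and Nubp1 (−0.35, with groups that did not overlap).

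**Figure D3:**
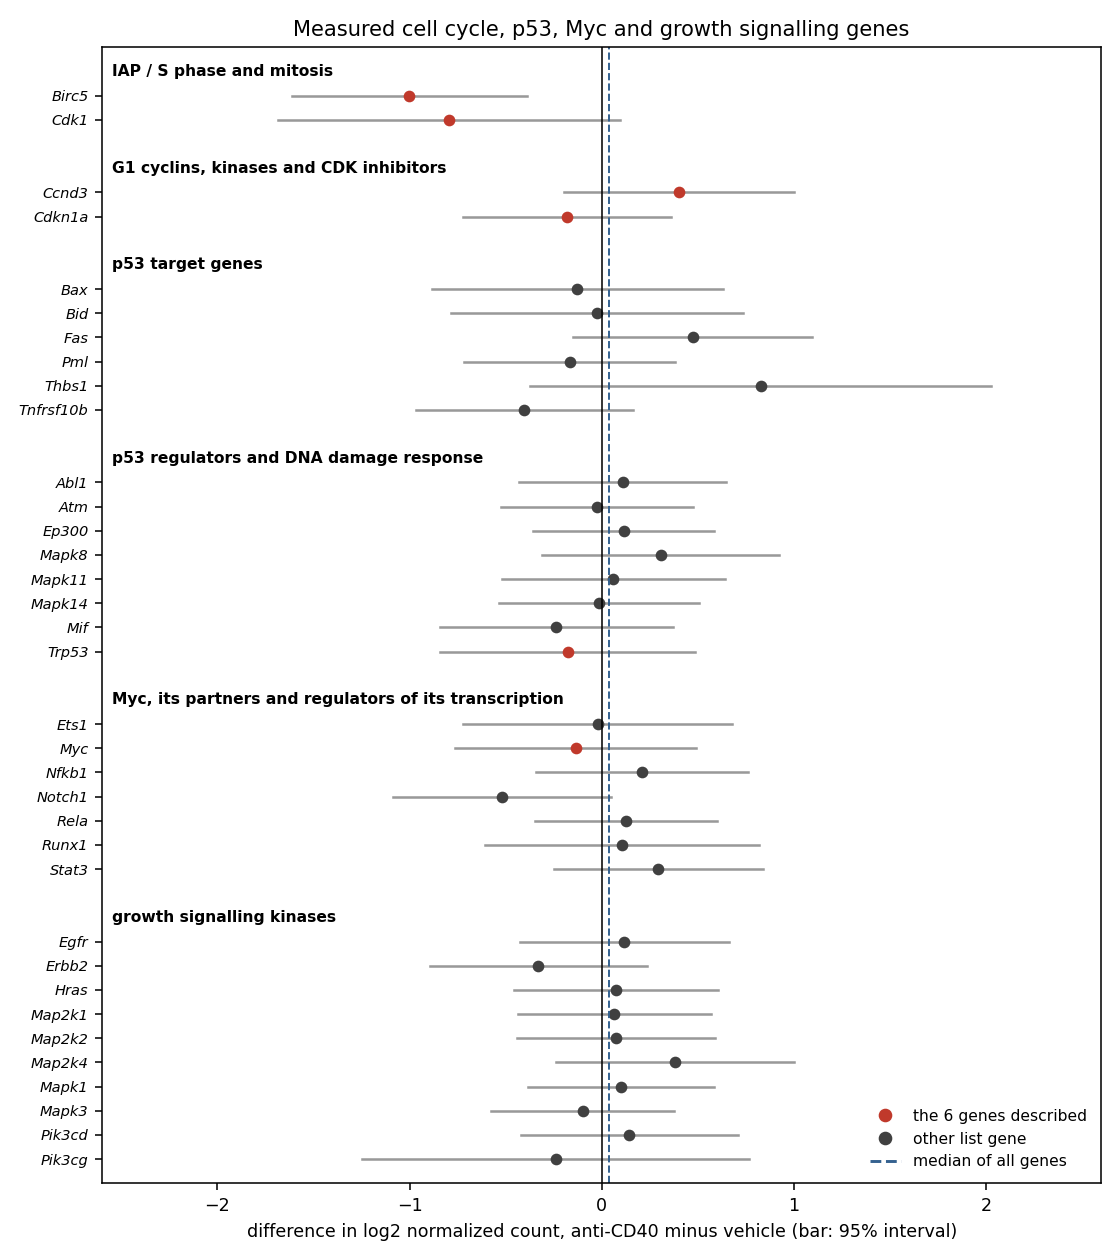
Differences in log2 normalized count (x axis, anti-CD40 minus vehicle) of 35 of the 36 measured genes of the cell cycle, p53, Myc and growth lists, each drawn once, with 95% intervals of the limma fit as bars and the median of all 770 genes, 0.038, as a dashed line. Birc5 at −1.001 is the one point whose interval lies wholly below 0, an interval not adjusted for the number of genes.

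Profiles over the 6 libraries were compared by the root mean square distance between log2 values after each gene's own mean was subtracted, against 518 other genes above background in every library. All 6 libraries enter this measure, the group difference included, so nearness is a description. Nearest to Birc5 were Ccl22 (0.25 log2), Tnfaip3 (0.27) and Cd5 (0.29), whose differences were −0.59, −0.63 and −0.83, where the median gene lay at 0.64. Nearest to Cdk1 were Cd80 (0.27), Ccr2 (0.30) and Tubb5 (0.30), all lowest in anti-CD40 1 as Cdk1 was. Cdk1 was not above background in 4 of the 6 libraries, and its 7 counts in anti-CD40 1 lay under that library's negative control mean of 15.9, so its profile, and which genes lie near it, rest on values at the floor. For Ccnd3 they were Lamp1 (0.17), Plaur (0.18) and Bmi1 (0.18).

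This distance shrinks with a gene's own spread, so it is not compared between genes. Cdkn1a, Myc and Trp53 varied by 0.19, 0.26 and 0.29 log2 (root mean square about their own means), with the median gene 0.37, 0.37 and 0.47 away, whereas Birc5 and Cdk1 varied by 0.55 and 0.59, with the median gene 0.64 and 0.66 away. Myc lay nearest to Il18 (0.057 log2), then to the housekeeping gene Hprt (0.094) and to H2-M3 (0.12). Cdkn1a lay nearest to Erbb2 (0.084), H2-M3 (0.099) and Tapbp (0.10), and Trp53 to Mif (0.10), Cd69 (0.16) and Angpt2 (0.17). Among the 6 genes themselves, Cdkn1a and Myc were the closest pair, at 0.17, both highest in vehicle 1. Cdkn1a and Trp53 were 0.32 apart, Birc5 and Cdk1 0.46, and Birc5 and Ccnd3, which differed in opposite directions, were the farthest pair at 0.77, distances that the spread of each gene also sets.

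**Figure D4:**
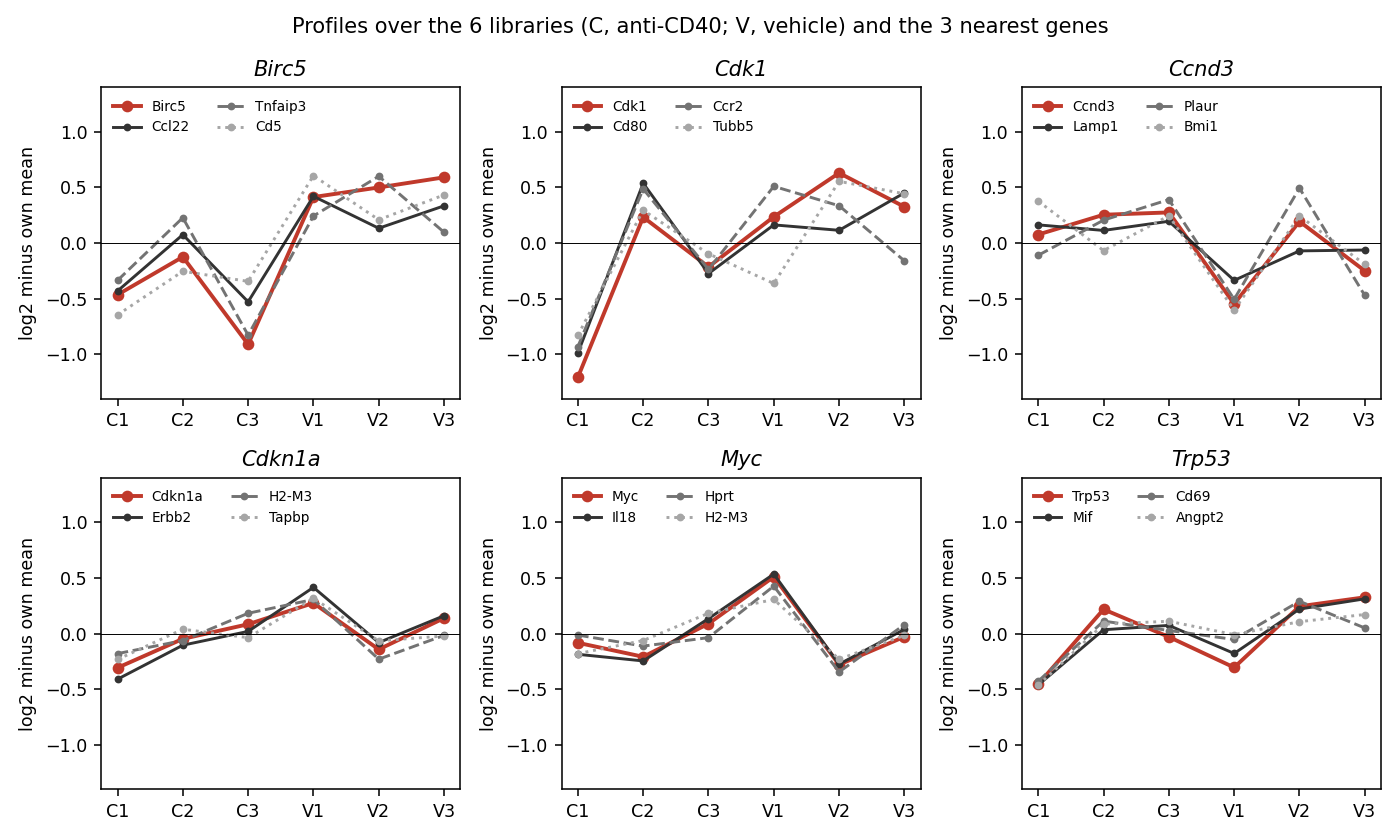
Log2 normalized count minus the gene's own mean (y axis) over anti-CD40 libraries C1 to C3 and vehicle libraries V1 to V3, for each of the 6 genes (red) and its 3 nearest genes (grey). Cdk1 and its 3 nearest genes share a low point in C1, and Myc and its 3 share a high point in V1.

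**Figure D5:**
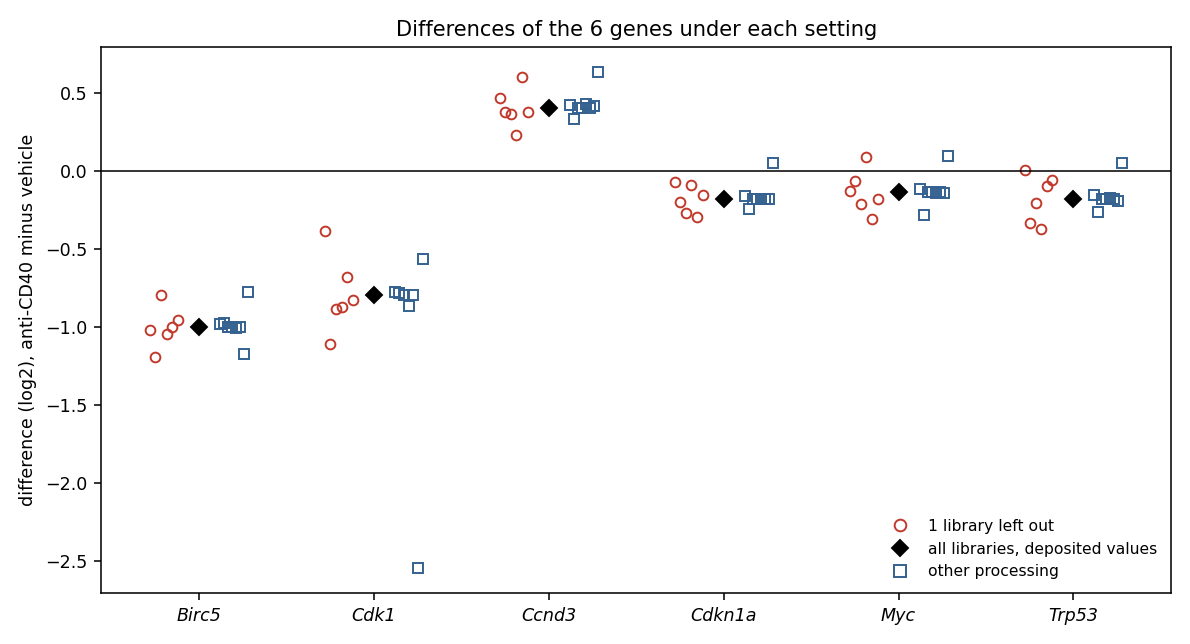
Differences in log2 units (y axis, anti-CD40 minus vehicle) of the 6 genes with all libraries (black), with 1 library left out (red circles) and under other processing (blue squares). Birc5 stays between −1.19 and −0.77 and Ccnd3 between 0.23 and 0.63, whereas Cdkn1a, Myc and Trp53 each have at least 1 value above 0 and Cdk1 reaches −2.55 after subtraction of background.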

How the data were processed

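The deposited file, by its name log2 normalized counts made by the authors, has 770 gene rows, 6 positive and 8 negative control rows, and 1 column per sample. For platform, counting software, normalization rule and genome build, the sources used here give nothing. Raised to the power of 2, each value less 4.55 was a whole count multiplied by a factor of its library (4704 of 4704 values to within 0.05 counts). The offset understates differences of low genes. Limma 3.58.1 in R 4.3.3 (lmFit, eBayes, no covariate, two-sided) was fitted to the deposited log2 values of all 770 genes, with 4 residual degrees of freedom. The fit was also run on 10 simulated tables, whose outcome is not given here. With 3 samples per group, 0 genes called does not show that no gene changed. Limma-voom used the recovered counts with library sizes set by the same factors. Promoters were searched with Python 3.11.15. The 6 genes and the lists were chosen with earlier results of these data known. Named besides the 6 were the 3 nearest profiles per gene, and, from each list of over 5 measured genes, the 4 other genes above background throughout with the largest absolute difference, of which 1 is not reported here. Alternatives were housekeeping centring, quantile normalization, a background filter, background subtraction, a variance trend, voom, the replicate number as a block, and leaving out each library.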

Additional observations from a re-analysis of the deposited data

How the results depend on the processing

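Limma called 0 genes under all 13 alternatives, those with 1 library left out included, while the number at an unadjusted p under 0.05, 25 with all libraries, ran from 13 without anti-CD40 1 to 52 after quantile normalization. Birc5 was lower in anti-CD40 tumours under every alternative run, by −1.19 to −0.80 with 1 library left out and −1.17 to −0.77 otherwise. Cdk1 kept its sign, from −1.11 to −0.39 with 1 library left out. It was −2.55 when background was subtracted with a floor of 1 count, where low counts weigh most and anti-CD40 1 and 3 took the floor value. It had no value under the background filter, which removed it. Ccnd3 kept its sign, from 0.23 to 0.60 with 1 library left out. The sign turned for Myc without vehicle 1 (0.086; −0.31 to 0.086 over all left-out libraries) and for Trp53 without anti-CD40 1 (0.0052; −0.37 to 0.0052). Against the 6 epithelial markers it turned for Cdkn1a (0.048), Myc (0.093) and Trp53 (0.051). The same marker mean was subtracted from every gene of a library, so all 6 differences moved up equally and these small negative ones passed 0. Why the marker mean was lower in anti-CD40 tumours was not tested. With 1 library left out the sign also turned for the median differences of the p53 targets, the p53 regulators, the Myc list, the growth signalling genes and the housekeeping genes. With the replicate number as a block, 0 genes were called and Birc5 differed by −1.001. Nothing in the labels says that equal replicate numbers mark pairs, so same-numbered samples were not treated as pairs. Their deviations from the group means correlated at −0.43, 0.069 and 0.28 for numbers 1, 2 and 3. Differently numbered samples ran from −0.56 to 0.48. Deviations cancel out within each group, so these correlations depend on each other and cannot decide whether samples were paired. With 3 samples per group and counts near background, differences in Cdk1 are not well resolved at this depth.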
